A study of Homo sapiens with 6 samples.

Results

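The transcripts of the mitochondrial genome were compared between MDA-MB-231 cells treated with disulfiram and copper and cells given vehicle. The members were all rows of the deposited gene table that lie on chrMT, which gave 37 of 58825 genes. They comprised 13 mRNAs, 2 rRNAs and 22 tRNAs. All 37 have the same start, end and strand in GENCODE 29 (GRCh38), and all 37 passed the filter on low counts. MDA-MB-231 is an established human breast cancer line of mesenchymal type without oestrogen receptor. The DSF/Cu group received disulfiram with copper (DSF/Cu) at 0.2 µM for 24 h, and the DMSO group received the solvent. Each group held 3 repeats, and each repeat was a pool of the cells of 3 wells. With neither agent given by itself, what disulfiram did and what copper did cannot be told apart. The labels do not say that repeats were grown as separate cultures, so the spread that p-values rest on may be technical. The libraries were made from poly(A)-selected RNA.

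The human mitochondrial genome is a small circle of which both strands are transcribed as long precursors that start in a non-coding control region. The heavy-strand precursor holds both rRNAs, all mRNAs but one and most tRNAs, and the light-strand precursor holds the mRNA MT-ND6 and the remaining tRNAs. The tRNAs lie between the longer genes, and their excision by RNase P and RNase Z frees the mRNAs and rRNAs on either side. The mRNAs encode core subunits of complexes I, III, IV and V of oxidative phosphorylation. In the reference, genes of the heavy-strand precursor are annotated on the plus strand (28 genes) and those of the light-strand precursor on the minus strand (9 genes). The order from MT-TF to MT-TP follows the direction in which the heavy-strand precursor is made.

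Total counts per library were 61633168, 61129485 and 55563223 after DSF/Cu and 70883177, 63271518 and 62165212 in DMSO. Levels below are CPM after TMM scaling, unless FPKM (the deposited values per kilobase of gene) is named. Changes are log2 ratios of DSF/Cu over DMSO with their standard error, and a call is a Benjamini-Hochberg adjusted p under 0.05 in edgeR's quasi-likelihood test over 18229 genes. With total counts as the scale, without TMM, the median log2 change of all genes is -0.18, against 0.0023 with TMM. Results that this moves across the threshold are named beside the gene. The labelled line was checked on its markers. VIM averaged 2732 CPM after DSF/Cu and 3295 CPM in DMSO, and MSN averaged 2497 and 1684 CPM in the same order. The epithelial cadherin gene CDH1 averaged 0.0231 CPM after DSF/Cu and 0.0202 CPM in DMSO. It was 1 of 6 luminal and receptor markers looked up, of which 5 passed the filter. Together these 6 summed to 43.9 to 51.1 CPM after DSF/Cu and 77.4 to 84.2 CPM in DMSO, so they were not all absent. Of 14 markers of immune, endothelial, adipocyte and fibroblast cells, 6 had no count in any library and 3 passed the filter. Their summed level was 126.2 to 174.8 CPM after DSF/Cu and 95.2 to 182.4 CPM in DMSO.

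After DSF/Cu, the RNAs encoded at the start of the heavy-strand precursor rose and those further along divided by gene. Both rRNAs, MT-ND1, MT-ND2 and the tRNAs from MT-TF to MT-TM were higher. MT-CO1, MT-CO2, MT-CO3, MT-ND5 and MT-CYB were not called, and MT-ND6 was lower. Of the 37 members, 16 were called higher, against 18.5% of all genes tested. The 3 members called lower were MT-ND6, MT-TG and MT-TL2, against 16.8% of all genes tested. In either direction 35.2% of the tested genes were called. The other 18 members were not called. The groups did not overlap in CPM for 23 members, against 51.2% of all genes tested. Of these members 17 were higher and 6 lower after DSF/Cu, against 26.0% and 25.2% of all genes tested. The median log2 change was 0.08 over the members and 0.0023 over all genes. With total-count scaling, 14 members were called higher and 11 lower, against 12.9% and 26.7% of all genes tested (39.6% in either direction).

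**Figure D1:**
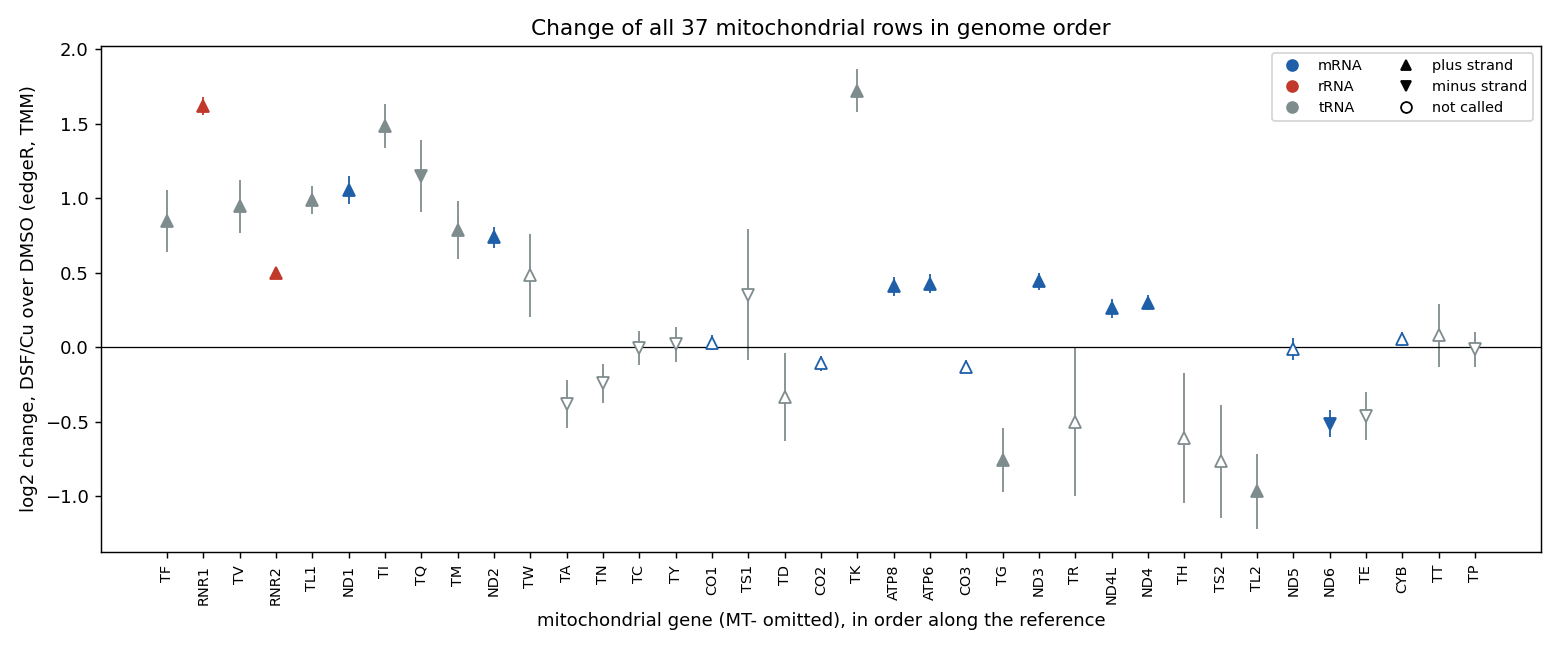
Log2 change of DSF/Cu over DMSO (TMM scaling) for the 37 mitochondrial genes in genome order, with bars for the standard error (for MT-RNR2 the bar is within the symbol); colour gives the RNA class, the direction of the triangle the strand, and open symbols were not called. The 10 genes from MT-TF to MT-ND2 lie between 0.50 and 1.62, and the 27 genes from MT-TW to MT-TP between -0.97 and 1.72.

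The 10 members from MT-TF to MT-ND2 were all called higher, against 18.5% of all genes tested, with a median log2 change of 0.97. Of the 27 members from MT-TW to MT-TP, 6 were called higher and 3 lower, with a median of -0.01. These are 22.2% and 11.1% of the 27, near the 18.5% and 16.8% of all genes tested. The place of this split was chosen after the values were seen, so it is given as a description. All 10 stayed called higher with total-count scaling, against 12.9% of all genes tested, with a median of 0.78.

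The rRNAs are the structural RNAs of the mitochondrial ribosome. MT-RNR1 (chrMT:648-1601), the 12S rRNA of the small subunit, had 1845, 1822 and 1665 CPM after DSF/Cu, against 562.4, 560.5 and 611.5 CPM in DMSO. The lowest DSF/Cu library was thus far above the highest DMSO library. The change was 1.62 ± 0.06 on the log2 scale, a 3.07-fold higher level (edgeR adjusted p = 2.49e-05). MT-RNR2 (chrMT:1671-3229), the 16S rRNA of the large subunit, had 6290, 6228 and 6147 CPM after DSF/Cu and 4295, 4349 and 4554 CPM in DMSO. It was 1.41-fold higher, a change of 0.50 ± 0.04 (edgeR adjusted p = 1.93e-04), again without overlap. The rRNAs did not rise in proportion. The count ratio of MT-RNR1 to MT-RNR2 was 0.293, 0.292 and 0.271 after DSF/Cu, against 0.131, 0.129 and 0.134 in DMSO. This ratio was 2.17 times as high after DSF/Cu, and it does not depend on library scaling.

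MT-TV (chrMT:1602-1670), the valine tRNA that lies between the rRNAs, had 353, 309 and 384 counts after DSF/Cu and 232, 201 and 248 counts in DMSO, a change of 0.95 ± 0.18 (edgeR adjusted p = 0.00769). MT-TF, the phenylalanine tRNA in front of MT-RNR1, had 226, 215 and 152 counts after DSF/Cu and 168, 112 and 133 counts in DMSO. Its raw counts overlap between groups, while its CPM do not, since the DSF/Cu libraries are smaller. Its change was 0.85 ± 0.21 (edgeR adjusted p = 0.0199), and it was not called without DSF/Cu replicate 1 or 2 or DMSO replicate 2 or 3 (adjusted p up to 0.0663). MT-TL1, the tRNA for leucine UUA/G between MT-RNR2 and MT-ND1, averaged 64.9 ± 6.10 CPM after DSF/Cu and 32.7 ± 2.10 CPM in DMSO (SD, n = 3). It was the most counted of the called tRNAs, with a change of 0.99 ± 0.09 (edgeR adjusted p = 5.3e-04). Its ratio to MT-ND1, the gene that follows it, was 0.0074 ± 0.0000903 after DSF/Cu and 0.00775 ± 0.00018 in DMSO, while its ratio to MT-RNR2, the gene before it, was 0.0104 ± 0.000894 and 0.00743 ± 0.000245 in the same order.

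Mature rRNAs and tRNAs carry short A tails or none, so their recovery in a poly(A)-selected library also depends on the selection. RNAs without a poly(A) tail that are encoded in the nucleus were therefore counted in the same libraries. Of 26 rows found for such RNAs, 12 were tested, 7 were called higher and none lower, against 18.5% and 16.8% of all genes tested. The median log2 change of the tested rows was 2.68. With total-count scaling the calls were also 7 and 0, against 12.9% and 26.7% of all genes tested. The summed level of the 26 rows, histone genes among them, was 107.8 to 118.9 CPM after DSF/Cu and 29.3 to 35.5 CPM in DMSO. The rows at 0 in every library numbered 7, namely RNU2-1, RNU12, RNY3, VTRNA1-1, TERC, SCARNA2 and 1 of the rows of RMRP. RN7SK, a nuclear RNA that holds a transcription elongation factor inactive, had 585, 436 and 459 counts after DSF/Cu and 8, 15 and 10 in DMSO. The replication-type histone gene HIST2H2AA3 rose by 3.22 ± 0.14 and the linker histone gene HIST1H1C by 1.53 ± 0.09. RN7SL2, the RNA of the signal recognition particle, rose by 2.73 ± 0.25. RN7SK and RN7SL2 averaged 8.86 and 6.65 CPM after DSF/Cu and 0.16 and 1.00 CPM in DMSO, small parts of the summed level. These levels moved in the same direction as the mitochondrial rRNAs, and their part in the rRNA and tRNA results was not tested.

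Complex I, which oxidises NADH, has 7 subunits encoded in the mitochondrion. Of their mRNAs 5 rose, MT-ND6 fell and MT-ND5 was not called. MT-ND1 (chrMT:3307-4262), which encodes a membrane subunit at the quinone site, had 9845, 8094 and 8406 CPM after DSF/Cu and 3958, 4075 and 4655 CPM in DMSO. The groups were well apart, with a 2.08-fold higher level after DSF/Cu, a change of 1.05 ± 0.09 (edgeR adjusted p = 4.48e-04). MT-ND2 (chrMT:4470-5511), a subunit of the proton-pumping membrane arm, had 12945, 11364 and 11905 CPM after DSF/Cu and 6608, 7579 and 7511 CPM in DMSO. It was 1.67-fold higher, a change of 0.74 ± 0.07 (edgeR adjusted p = 5.8e-04).

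The other mRNAs of complex I on the plus strand changed less. MT-ND3 (chrMT:10059-10404), which encodes a small membrane subunit, had 1824, 1873 and 1727 CPM after DSF/Cu and 1287, 1288 and 1416 CPM in DMSO. Its change was 0.44 ± 0.05 (edgeR adjusted p = 0.00149). MT-ND4L and MT-ND4 (chrMT:10470-10766 and chrMT:10760-12137), membrane subunits read from 1 bicistronic mRNA, overlap by 7 bases. MT-ND4 had 13092, 11697 and 12652 CPM after DSF/Cu and 9724, 10166 and 10525 CPM in DMSO, without overlap. It rose by 0.30 ± 0.05 (edgeR adjusted p = 0.0055), and MT-ND4L rose by 0.26 ± 0.06 (edgeR adjusted p = 0.0169). With total-count scaling neither was called (0.11, adjusted p = 0.0838, for MT-ND4 and 0.07, adjusted p = 0.366, for MT-ND4L), and MT-ND4L was not called without DMSO replicate 1 or 2 (adjusted p = 0.056 and 0.0511). MT-ND5 (chrMT:12337-14148), a large subunit at the far end of the membrane arm, had 2884, 2443 and 2675 CPM after DSF/Cu and 2558, 2641 and 2863 CPM in DMSO. These overlapped, with a change of -0.01 ± 0.07 (edgeR adjusted p = 0.928), and with total-count scaling it was called lower (-0.20, adjusted p = 0.0469).

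MT-ND6 (chrMT:14149-14673), a membrane subunit of complex I, is the only one of the 13 mRNAs annotated on the minus strand. It had 429.8, 393.9 and 459.3 CPM after DSF/Cu and 560.3, 592.9 and 677.0 CPM in DMSO. Every DSF/Cu library was below every DMSO library, with a 1.43-fold lower level, a change of -0.51 ± 0.09 (edgeR adjusted p = 0.0055). Its share of the counts of the 13 mRNAs was 0.507, 0.516 and 0.581% after DSF/Cu, against 0.906, 0.910 and 0.998% in DMSO. An exact two-sided permutation test of this share gave p = 0.1, the smallest that 3 libraries against 3 allow (Benjamini-Hochberg adjusted p = 0.14 over 7 shares and ratios tested). Beside its neighbour MT-ND5, which ends on the opposite strand at the base before MT-ND6, the count ratio was 0.161 ± 0.0113 after DSF/Cu and 0.227 ± 0.00892 in DMSO (SD, n = 3). MT-ND6 is also set apart by its sequence, since 35.6% of its bases are G, against 6.3 to 16.2% in the 12 plus-strand mRNAs. Whether the counting used strand is not given in the sources used here. Without it, reads from MT-ND6 and from RNA of the opposite strand cannot be told apart.

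Complex III and complex IV, which pass electrons to cytochrome c and to oxygen, gave mRNAs that were not called with TMM scaling. MT-CYB (chrMT:14747-15887), the cytochrome b of complex III, had 4331, 3958 and 4037 CPM after DSF/Cu and 3883, 3929 and 4042 CPM in DMSO. Its change was 0.06 ± 0.04 (edgeR adjusted p = 0.377), and it turned to -0.13 with total-count scaling, where it was called (adjusted p = 0.0232). MT-CO1 (chrMT:5904-7445), the catalytic subunit of complex IV, had 10432, 9609 and 10289 CPM after DSF/Cu and 9309, 10252 and 10104 CPM in DMSO. Its change was 0.03 ± 0.05 (edgeR adjusted p = 0.673), and -0.15 with total-count scaling (adjusted p = 0.0319). The direction of both genes thus rests on the scaling.

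MT-CO2 (chrMT:7586-8269), which carries the copper centre that accepts electrons from cytochrome c, had 6460, 6188 and 6067 CPM after DSF/Cu and 6443, 6540 and 7177 CPM in DMSO. Its groups overlapped, with a change of -0.11 ± 0.05 (edgeR adjusted p = 0.156). MT-CO3 (chrMT:9207-9990), the other core subunit of complex IV, had 6007, 5710 and 5448 CPM after DSF/Cu and 6412, 6092 and 6265 CPM in DMSO. All DSF/Cu libraries of MT-CO3 were lower, by -0.13 ± 0.05 on the log2 scale, short of a call (edgeR adjusted p = 0.0672). With total-count scaling both were called lower, MT-CO2 by -0.29 (adjusted p = 0.00267) and MT-CO3 by -0.32 (adjusted p = 0.00112).

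Complex V, the ATP synthase, has its membrane subunits MT-ATP8 and MT-ATP6 encoded here, and both mRNAs rose. MT-ATP6 (chrMT:8527-9207), the subunit of the proton channel, had 10532, 9574 and 9624 CPM after DSF/Cu and 6778, 7497 and 7838 CPM in DMSO. It was 1.34-fold higher, a change of 0.43 ± 0.07 (edgeR adjusted p = 0.00333). MT-ATP8 (chrMT:8366-8572), a small subunit of the stator, had 3431, 3139 and 3176 CPM after DSF/Cu and 2300, 2385 and 2650 CPM in DMSO. It rose by 0.41 ± 0.06 (edgeR adjusted p = 0.00386). In limma on log2(FPKM + 1) neither gene was called (adjusted p = 0.0619 for MT-ATP6 and 0.0783 for MT-ATP8). The genes share 46 bases of 1 bicistronic mRNA, so reads there cannot be given to either gene. The shared stretch, chrMT:8527-8572 on the plus strand (GRCh38, from the GENCODE 29 transcripts), is shown because it holds the start codon of MT-ATP6 and the stop codon of MT-ATP8, both in capitals.
MT-ATP8 and MT-ATP6 shared stretch: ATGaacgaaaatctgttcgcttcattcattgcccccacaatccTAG

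The count ratio of MT-ATP8 to MT-ATP6 was 0.326, 0.328 and 0.330 after DSF/Cu and 0.339, 0.318 and 0.338 in DMSO, with overlapping groups. MT-ATP6 and MT-CO3 share 1 base and come from 1 stretch of the precursor without a tRNA between them. Their ratio was 1.73 ± 0.0485 after DSF/Cu and 1.18 ± 0.107 in DMSO (SD, n = 3), without overlap. Among neighbours on this precursor, MT-ATP8 and MT-ATP6, and MT-ND4L and MT-ND4, kept overlapping ratios, and MT-ATP6 and MT-CO3 did not.

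**Figure D2:**
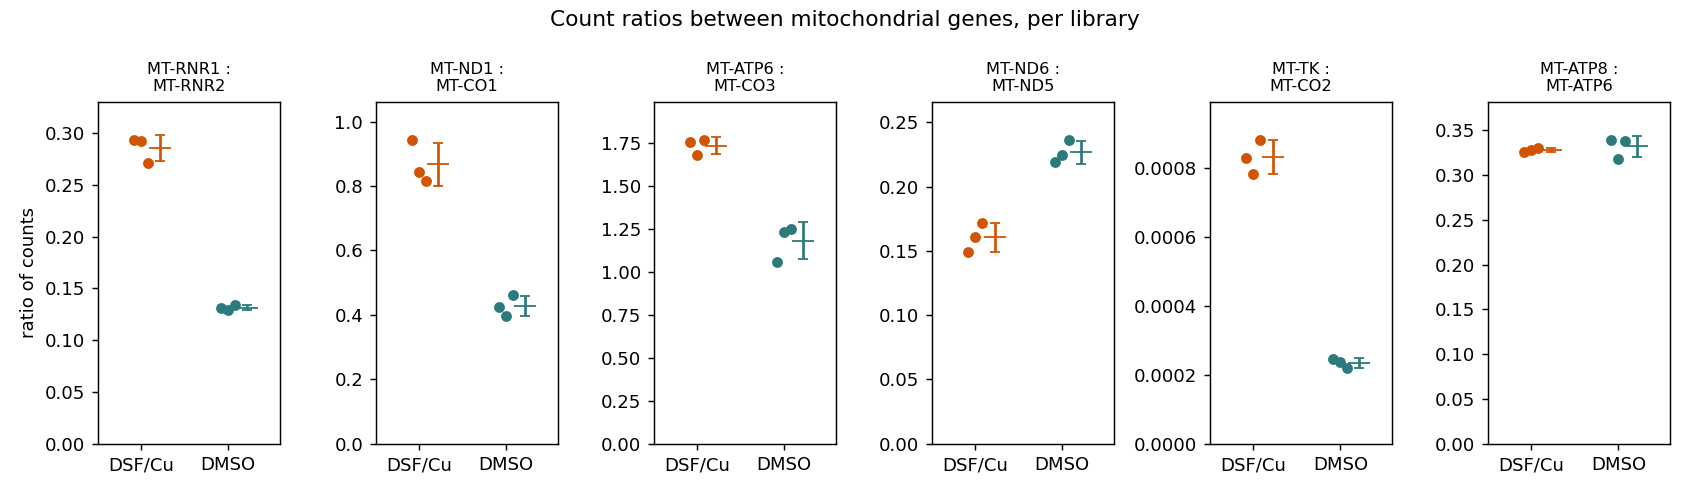
Count ratios in each library, with DSF/Cu left of DMSO, points for libraries and bars for mean ± SD (n = 3); each panel has its own axis from 0. The groups are apart in the panels of MT-RNR1 to MT-RNR2, MT-ND1 to MT-CO1, MT-ATP6 to MT-CO3, MT-ND6 to MT-ND5 and MT-TK to MT-CO2, and overlap for MT-ATP8 to MT-ATP6.

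These changes altered how the mRNA counts divided among the complexes. The 7 mRNAs of complex I held 51.4, 50.0 and 51.2% of the mRNA counts after DSF/Cu, against 43.2, 43.7 and 43.9% in DMSO. The 3 mRNAs of complex IV held 27.01, 28.18 and 27.56% after DSF/Cu, against 35.83, 35.13 and 34.71% in DMSO. Complex I was thus higher by 7.26 percentage points and complex IV differed by -7.64 percentage points. Complex V held 16.4 ± 0.241% after DSF/Cu and 15.1 ± 0.397% in DMSO, and MT-CYB of complex III held 5.13 ± 0.0459% and 6.09 ± 0.167% in the same order (SD, n = 3). None of these 4 shares overlapped between groups, and none depends on library scaling. As parts of 1 total they cannot move independently. The higher share of complex I lay mostly in MT-ND1 and MT-ND2. The shares per gene that follow are of all mitochondrial counts, rRNAs and tRNAs included. Of all mitochondrial counts, the share of MT-ND1 differed by 3.90 and that of MT-ND2 by 3.35 percentage points. The shares of MT-ND3, MT-ND4L, MT-ND4, MT-ND5 and MT-ND6 differed by 0.155, -0.146, -0.324, -0.811 and -0.383 percentage points. Among these, MT-ND3 was higher and MT-ND5 and MT-ND6 were lower without overlap between groups, while MT-ND4L and MT-ND4 overlapped.

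**Figure D3:**
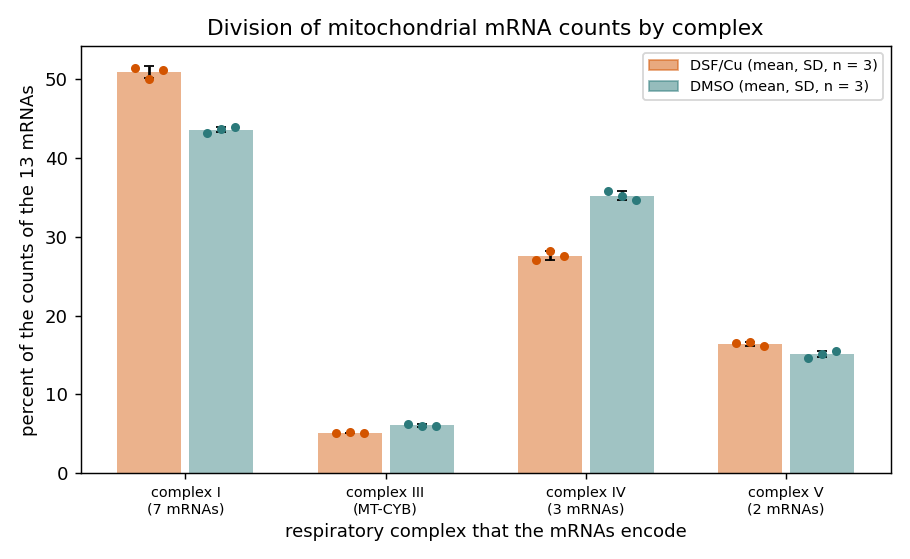
Percent of the counts of the 13 mRNAs that fell on the mRNAs of each respiratory complex, as mean and SD of 3 libraries, with DSF/Cu left of DMSO. Complex I holds 50.9% after DSF/Cu against 43.6% in DMSO, and complex IV 27.6% against 35.2%.

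Inside complex I the count ratio of MT-ND1 to MT-ND2 was 0.726 ± 0.0298 after DSF/Cu and 0.585 ± 0.0427 in DMSO, without overlap. Against complex IV the shift was larger. The ratio of MT-ND1 to MT-CO1 was 0.944, 0.842 and 0.817 after DSF/Cu and 0.425, 0.398 and 0.461 in DMSO, a ratio 2.03 times as high. For MT-ND2 to MT-CO1 it was 1.19 ± 0.043 after DSF/Cu and 0.731 ± 0.0183 in DMSO. The ratios of MT-CO1 to MT-CO2, of MT-CO2 to MT-CO3 and of MT-ND5 to MT-CYB overlapped between groups.

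Several mitochondrial mRNAs end on T or TA, and the A tail added after cleavage completes their stop codon. The ends are shown for mRNAs that did and did not change, since the tail also decides which molecules a poly(A) selection holds. Each line gives the last 30 bases of the annotated gene, 5′ to 3′ on the gene's own strand (GRCh38, GENCODE 29), with the bases of the last codon in capitals. The positions are chrMT:4233-4262 for MT-ND1, chrMT:5482-5511 for MT-ND2, chrMT:9961-9990 for MT-CO3, chrMT:7416-7445 for MT-CO1, chrMT:9178-9207 for MT-ATP6 and chrMT:14149-14178 on the minus strand for MT-ND6.
MT-ND1: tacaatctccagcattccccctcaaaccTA
MT-ND2: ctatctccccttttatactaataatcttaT
MT-CO3: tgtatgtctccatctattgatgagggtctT
MT-CO1: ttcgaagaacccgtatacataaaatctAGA
MT-ATP6: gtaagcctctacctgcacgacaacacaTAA
MT-ND6: attgtaattgagattgctcgggggaatAGG

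Of the 6 mRNAs with an incomplete stop codon, 4 were called higher and none lower, against 18.5% and 16.8% of all genes tested. They were MT-ND1, MT-ND2, MT-ND3 and MT-ND4, and MT-CO3 and MT-CYB were not called. Of the 7 mRNAs with a complete last codon, 3 were called higher and 1 lower, against the same shares of all genes tested. MT-ND6 ends on AGG and MT-CO1 on AGA, and human MT-ND6 mRNA is known for its lack of a long A tail. Both kinds of ending thus occurred among mRNAs that rose and among mRNAs that were not called. Tails were not measured, so the endings do not show which molecules the selection held.

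Per length, the order of the mRNAs and rRNAs differed between groups. After DSF/Cu the order by mean FPKM was MT-ATP8 (12569 ± 407), MT-ATP6 (11654 ± 430), MT-ND2 (9277 ± 484), MT-ND1 (7352 ± 655), MT-CO2, MT-ND4, MT-ND4L, MT-CO3, MT-CO1, MT-ND3, MT-RNR2, MT-CYB, MT-RNR1, MT-ND5 and MT-ND6 (653 ± 54.3, SD, n = 3). MT-ND1, MT-CO2, MT-ND4 and MT-ND4L each overlapped the next gene or the gene before in this order, and the other neighbours did not. In DMSO it was MT-ATP8 (10657 ± 776), MT-ATP6 (9764 ± 671), MT-CO2 (8864 ± 515), MT-CO3 (7202 ± 233), MT-ND4, MT-ND4L, MT-ND2 (6261 ± 431), MT-CO1, MT-ND1 (3991 ± 346), MT-ND3, MT-CYB, MT-RNR2, MT-ND5, MT-ND6 and MT-RNR1 (546.8 ± 27.3). There MT-ATP8 and MT-ATP6, MT-ATP6 and MT-CO2, MT-ND4L and MT-ND2, and MT-ND2 and MT-CO1 overlapped. MT-RNR1 was the lowest of the 15 in DMSO and the thirteenth after DSF/Cu.

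**Figure D4:**
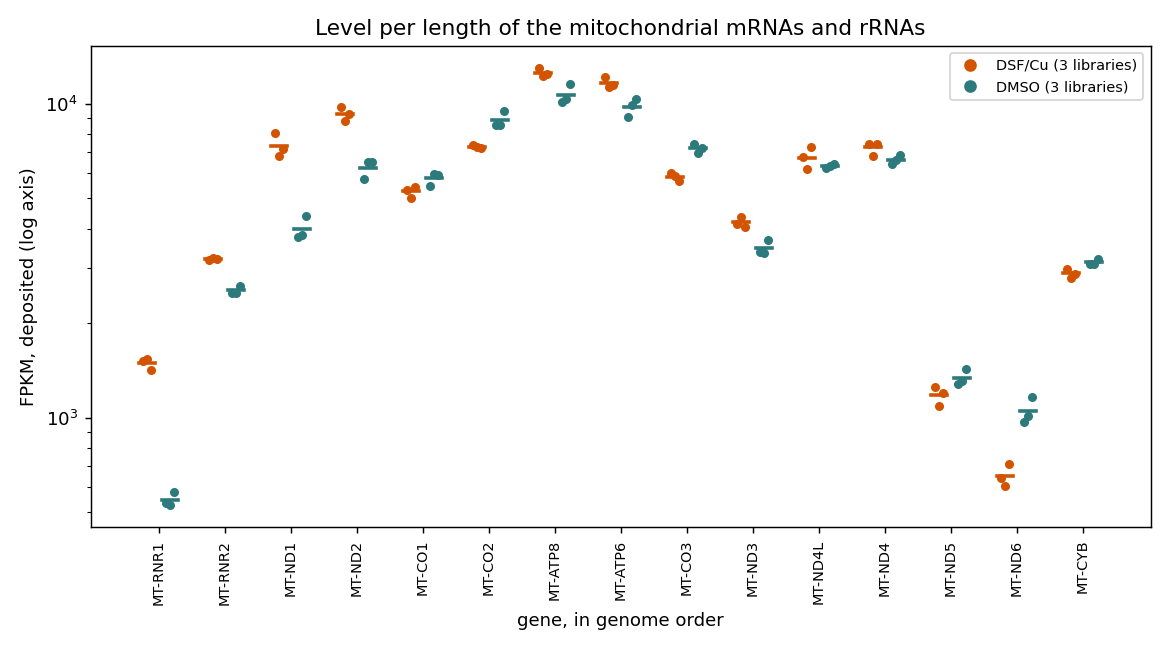
Deposited FPKM of the 15 mRNAs and rRNAs in genome order on a log axis, with points for the 3 libraries of each group, a line for their mean, and DSF/Cu left of DMSO. MT-RNR1 and MT-ND1 have all DSF/Cu points above the DMSO points, and MT-ND6 has them below.

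The 22 tRNAs carry amino acids to the mitochondrial ribosome. They gave 7 calls higher and 2 lower, which is 31.8% and 9.09% of the tRNAs, against 18.5% and 16.8% of all genes tested. The other 13 were not called. Their genes are 59 to 75 bases long. On the FPKM scale a tRNA row reached a median of 2.27% (range 0.102 to 21.7%) of its lower neighbour among mRNAs and rRNAs after DSF/Cu, and 4.03% (range 0.0803 to 16.5%) in DMSO. Counts on a tRNA row may come from uncut precursors that run into a neighbour as well as from the tRNA, and the files do not separate these. Of the 14 plus-strand tRNAs, 6 rose and 2 fell. Of the 8 minus-strand tRNAs, 1 rose, namely MT-TQ, and none fell.

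The 4 tRNAs below are shown as those with the highest and the lowest change, together with MT-TQ, which overlaps MT-TI on the other strand. Sequences are the genes, 5′ to 3′ on their own strand (GRCh38, GENCODE 29 transcripts), with the anticodon in capitals where the codon named in the deposited table matches 1 site only. They lie at chrMT:8295-8364 for MT-TK, chrMT:4263-4331 for MT-TI, chrMT:4329-4400 on the minus strand for MT-TQ and chrMT:12266-12336 for MT-TL2.
MT-TK: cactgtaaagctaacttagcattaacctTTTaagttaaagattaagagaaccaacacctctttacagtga
MT-TI: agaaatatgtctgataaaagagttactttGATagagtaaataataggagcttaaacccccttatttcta
MT-TQ: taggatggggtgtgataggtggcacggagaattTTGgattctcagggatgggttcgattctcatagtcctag
MT-TL2: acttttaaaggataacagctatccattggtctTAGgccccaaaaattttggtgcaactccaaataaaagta

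MT-TK, the lysine tRNA between MT-CO2 and MT-ATP8, had 302, 280 and 283 counts after DSF/Cu and 121, 104 and 104 counts in DMSO. Its 3.30-fold higher level was the largest change among the members with TMM scaling, 1.72 ± 0.15 (edgeR adjusted p = 3.85e-04). It stood apart from the genes beside it, since MT-CO2 changed by -0.11 and MT-ATP8 by 0.41. The ratio of MT-TK to MT-CO2 counts was 3.55 times as high after DSF/Cu as in DMSO, and that of MT-TK to MT-ATP8 was 2.48 times as high, both without overlap.

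MT-TI, the isoleucine tRNA that follows MT-ND1, had 664, 754 and 677 counts after DSF/Cu and 362, 250 and 328 counts in DMSO. It rose by 1.48 ± 0.15 (edgeR adjusted p = 6.6e-04), beside 1.05 for MT-ND1. MT-TQ, the glutamine tRNA on the minus strand, shares 3 bases with MT-TI and had 179, 135 and 135 counts after DSF/Cu and 107, 63 and 85 counts in DMSO. It rose by 1.15 ± 0.24 (edgeR adjusted p = 0.0112). It was the only one of the 9 minus-strand genes called higher, and it lies between plus-strand genes that rose. Without a stated strand setting, its reads and those of the opposite strand cannot be told apart. MT-TM, the methionine tRNA before MT-ND2, had 218, 157 and 173 counts after DSF/Cu and 148, 118 and 133 counts in DMSO, a change of 0.79 ± 0.19 (edgeR adjusted p = 0.0211). It was not called without DSF/Cu replicate 1 or 3 or any 1 of the DMSO replicates (adjusted p up to 0.0719). MT-TW, the tryptophan tRNA behind MT-ND2, had a change of 0.48 ± 0.28 and was not called (edgeR adjusted p = 0.230).

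The tRNAs that were lower lie further along the precursor. MT-TL2, the tRNA for leucine CUN before MT-ND5, had 96, 100 and 139 counts after DSF/Cu and 363, 216 and 255 counts in DMSO. It fell by 0.97 ± 0.25 on the log2 scale (edgeR adjusted p = 0.0256), while MT-ND5 behind it did not pass the test. MT-TG, the glycine tRNA between MT-CO3 and MT-ND3, had 66, 99 and 88 counts after DSF/Cu and 205, 173 and 159 counts in DMSO, a change of -0.75 ± 0.22 (edgeR adjusted p = 0.0348). Both were low-count rows whose groups did not overlap. The call of MT-TG was lost when any single library was left out (adjusted p up to 0.0966), and that of MT-TL2 when DSF/Cu replicate 1 or 2 or DMSO replicate 1 or 3 was left out (adjusted p up to 0.0815).

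MT-TH, MT-TS2 and MT-TR, the tRNAs for histidine, serine AGU/C and arginine, had changes of -0.61 ± 0.43, -0.77 ± 0.38 and -0.50 ± 0.50 and were not called. DMSO replicate 1 stood above the other DMSO libraries in each. MT-TH had 102, 210 and 204 counts after DSF/Cu and 571, 201 and 242 counts in DMSO. The other DMSO libraries lie inside its range after DSF/Cu in CPM. MT-TS2 had 78, 141 and 150 counts after DSF/Cu and 420, 178 and 208 counts in DMSO, and MT-TR had 48, 84 and 130 counts after DSF/Cu and 272, 95 and 115 in DMSO.

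The cluster of minus-strand tRNAs between MT-ND2 and MT-CO1, which surrounds the site where light-strand DNA synthesis starts, held most of the tRNA counts. MT-TC, the cysteine tRNA, averaged 69.4 ± 0.663 CPM after DSF/Cu and 69.6 ± 11.0 CPM in DMSO (SD, n = 3). Its change was under 0.01 in size and not called (edgeR adjusted p = 0.986). MT-TN, the asparagine tRNA, averaged 49.4 ± 1.61 CPM after DSF/Cu and 58.5 ± 11.0 CPM in DMSO, a change of -0.24 ± 0.13 (edgeR adjusted p = 0.210). MT-TY for tyrosine had a change of 0.02 ± 0.12, which turned to -0.17 with total-count scaling, uncalled in both. MT-TA for alanine had -0.38 ± 0.16 (edgeR adjusted p = 0.117). With total-count scaling MT-TA and MT-TN were called lower (adjusted p = 0.0286 and 0.0387). The 8 minus-strand tRNAs together held 64.4, 65.2 and 64.4% of the tRNA counts after DSF/Cu, against 73.6, 76.2 and 78.6% in DMSO. MT-TL1 on the plus strand held 20.6 ± 1.35% after DSF/Cu and 11.5 ± 0.829% in DMSO.

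The remaining tRNAs were not called. MT-TE, the glutamate tRNA that follows MT-ND6 on the minus strand in the reference order, had 417, 475 and 545 counts after DSF/Cu and 833, 772 and 878 counts in DMSO. Its change of -0.46 ± 0.16 missed the threshold (edgeR adjusted p = 0.0658), and it was called lower with total-count scaling (-0.65, adjusted p = 0.0228), by DESeq2 (adjusted p = 0.014) and by limma on FPKM (adjusted p = 0.0153 and 0.0148). Its ratio to MT-ND6 was 0.0202 ± 0.00269 after DSF/Cu and 0.0195 ± 0.000104 in DMSO, with overlapping groups. MT-TT and MT-TP, for threonine and proline, changed by 0.08 ± 0.21 and -0.01 ± 0.12. MT-TT turned to -0.11 with total-count scaling. MT-TS1 and MT-TD, for serine UCN and aspartate, had 20 to 55 counts in every library and changes of 0.35 ± 0.44 and -0.33 ± 0.30. In limma on log2(FPKM + 1) MT-TD was called lower (adjusted p = 0.0168).

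**Figure D5:**
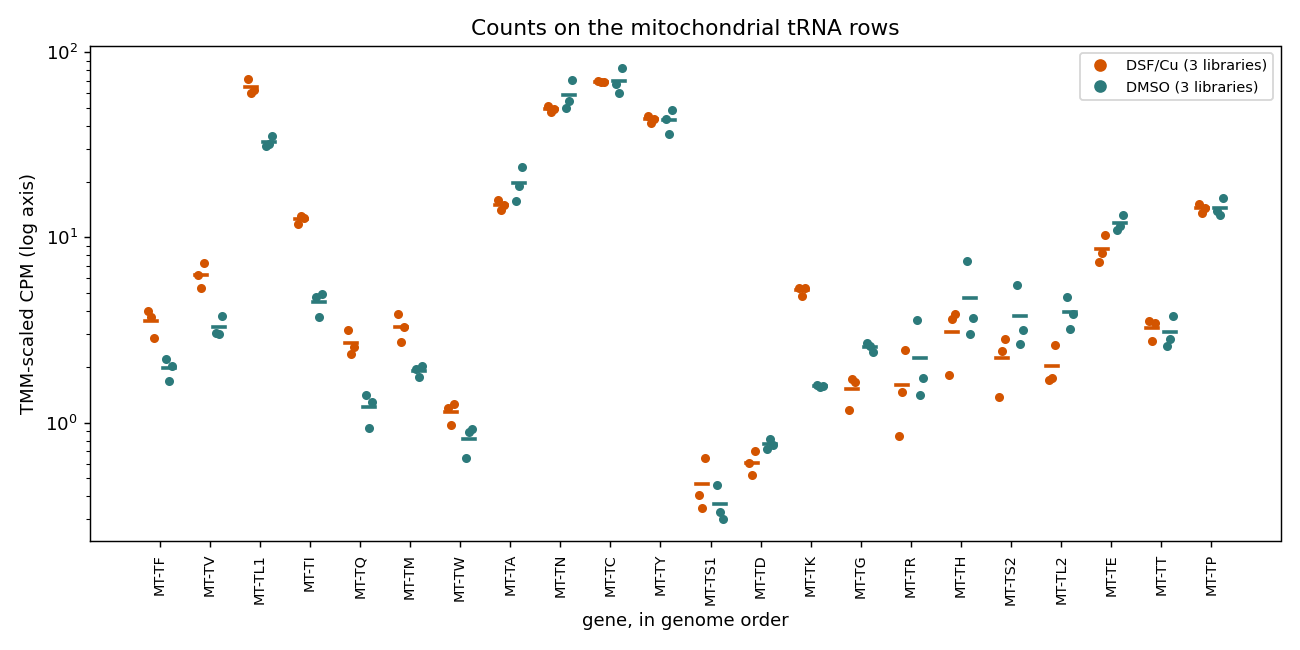
TMM-scaled CPM of the 22 tRNA genes in genome order on a log axis, with points for the 3 libraries of each group, a line for their mean, and DSF/Cu left of DMSO. MT-TK has 4.85 to 5.35 CPM after DSF/Cu and 1.55 to 1.59 CPM in DMSO, and DMSO replicate 1 is the highest point for MT-TR, MT-TH, MT-TS2 and MT-TL2.

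Along the plus strand the changes were mostly higher near the start, up to MT-ND2, than further along. For the 14 plus-strand mRNAs and rRNAs Spearman's rho of position with log2 change was -0.60, and with each DSF/Cu library set against the DMSO mean it was -0.587, -0.648 and -0.666. For the 14 plus-strand tRNAs rho was -0.723. For the 9 minus-strand genes rho was -0.383 by reference position, which runs against the direction in which the light-strand precursor is made. These are descriptions across genes, which share libraries, precursor and overlapping reads, and the DSF/Cu libraries are set against the same DMSO libraries. The changes did not decline steadily with distance. From MT-CO1 to MT-CYB the plus-strand mRNAs changed, in order, by 0.03, -0.11, 0.41, 0.43, -0.13, 0.44, 0.26, 0.30, -0.01 and 0.06. MT-RNR2 changed less than MT-ND1 and MT-ND2, which lie behind it, and MT-CO1 less than MT-ATP6 and MT-ND3. Over the 22 tRNAs, rho between a tRNA's change and the mean change of its neighbouring mRNAs and rRNAs was 0.571, with MT-TK as an exception on the upper side.

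All members together held 8.539, 8.003 and 8.308% of all counts after DSF/Cu, against 7.209, 7.454 and 7.798% in DMSO. The DSF/Cu libraries were all higher, by 0.796 percentage points on average, and the exact permutation test gave p = 0.1, the smallest that the design allows (Benjamini-Hochberg adjusted p = 0.14). In such bulk samples, more mitochondria per cell, more RNA in each and less of other RNAs cannot be told apart. The 13 mRNAs held 7.50 ± 0.277% of all counts after DSF/Cu and 6.92 ± 0.279% in DMSO (SD, n = 3; exact permutation p = 0.2). The groups overlapped at the margin, with a lowest DSF/Cu value of 7.213% and a highest DMSO value of 7.214%.

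The rRNA groups lay apart. The rRNAs held 0.745, 0.761 and 0.744% of all counts after DSF/Cu, against 0.523, 0.520 and 0.549% in DMSO (exact permutation p = 0.1). The rRNA to mRNA count ratio was 0.096, 0.106 and 0.0988 after DSF/Cu and 0.0785, 0.0754 and 0.0762 in DMSO, also without overlap (exact permutation p = 0.1). The 22 tRNAs held 0.0295 ± 0.000852% of all counts after DSF/Cu and 0.0305 ± 0.00383% in DMSO (exact permutation p = 0.8), a difference inside the spread of the DMSO libraries. The 9 minus-strand genes held 0.685, 0.698 and 0.761% of the mitochondrial counts after DSF/Cu, against 1.14, 1.12 and 1.27% in DMSO (exact permutation p = 0.1). No p in this family of 7 tests could fall below 0.1.

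Nuclear DNA holds copies of the mitochondrial genome, and a fragment of chromosome 1 near chr1:629062-634922 is near-identical to the stretch from MT-ND1 to MT-CO3. Reads of these members can therefore be split between the places. MTATP6P1 (chr1:633696-634376) differs from MT-ATP6 in 10 of 681 bases (98.53% identity). The first 60 bases of both are shown to make plain how few positions separate them, at chrMT:8527-8586 and chr1:633696-633755, plus strand, GRCh38. The capital marks the only differing base of the window, G19A, counted from the first base of MT-ATP6.
MT-ATP6: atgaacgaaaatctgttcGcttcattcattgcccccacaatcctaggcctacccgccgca
MTATP6P1: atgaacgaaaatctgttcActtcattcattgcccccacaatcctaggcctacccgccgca

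The counts on MTATP6P1 were 21.4, 21.2 and 20.8% of those on MT-ATP6 after DSF/Cu and 21.6, 19.7 and 20.3% in DMSO. The copy and the member thus moved in proportion, with changes of 0.47 ± 0.06 (edgeR adjusted p = 0.00168) and 0.43. MTND2P28 held 16.5 ± 0.415% of the MT-ND2 counts after DSF/Cu and 15.9 ± 2.91% in DMSO, with changes of 0.80 ± 0.12 and 0.74. MTND1P23, which covers 372 bases, held 0.585 ± 0.0644% of the MT-ND1 counts after DSF/Cu and 0.423 ± 0.0706% in DMSO, and rose by 1.50 ± 0.17. MTCO1P12 held 6.25 ± 0.817% of the MT-CO1 counts after DSF/Cu and 4.86 ± 1.20% in DMSO, and MTCO2P12 and MTCO3P12 held 0.191 to 0.338% of their member over all libraries. These 3 copies were not called. Of 407 nuclear copies in the table, 357 had no count in any library and 13 were tested. Of those tested, 3 rose and none fell, against 18.5% and 16.8% of all genes tested. Whether counts on the copies arise there or on chrMT was not tested. With the counts of these 6 copies added to their members, 16 members were still called higher and 3 lower.

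Genes of the nucleus that act on mitochondrial RNA were read from the same fit. The counts of this list and the next ones stand beside 18.5% higher and 16.8% lower over all genes tested. With total-count scaling these shares were 12.9% and 26.7%. Of 10 tested genes of mitochondrial transcription, 3 rose and 3 fell, with a median change of 0.09, and none rose and 4 fell with total-count scaling. TFAM, which packs mitochondrial DNA and opens its promoters, averaged 156 ± 4.31 CPM after DSF/Cu and 129 ± 7.84 CPM in DMSO, a rise of 0.27 ± 0.06 (edgeR adjusted p = 0.0159). TFB2M, which melts the promoter for the polymerase, rose by 0.31 ± 0.07. Neither was called with total-count scaling (adjusted p = 0.327 and 0.264). POLRMT, the mitochondrial RNA polymerase, averaged 64.3 ± 5.36 CPM after DSF/Cu and 76.9 ± 5.25 CPM in DMSO, a change of -0.26 ± 0.09 (edgeR adjusted p = 0.0566). It was called lower with total-count scaling (adjusted p = 0.0063). MRPL12, a ribosomal protein that also binds POLRMT, fell by 0.81 ± 0.05 on the log2 scale, and MTERF3, a negative regulator of mitochondrial transcription in mice, by 0.49 ± 0.08.

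Of 25 genes of mitochondrial RNA processing, stability and decay, 3 rose and 9 fell (median -0.22), or 2 and 17 with total-count scaling. FASTKD5, needed to cut precursors at sites without a tRNA, rose by 0.79 ± 0.07 (edgeR adjusted p = 3.44e-04). SUPV3L1, the helicase of the mitochondrial RNA degradosome, rose by 0.63 ± 0.08 (edgeR adjusted p = 0.00189). LRPPRC, which binds and stabilises the mRNAs, rose by 0.27 ± 0.05 (edgeR adjusted p = 0.0097), though not with total-count scaling (adjusted p = 0.354). TBRG4 and FASTK, which act on the levels of particular mitochondrial mRNAs, fell by 0.50 ± 0.05 and 0.74 ± 0.10 on the log2 scale. Of 26 genes that modify mitochondrial rRNAs and tRNAs, 7 rose and 8 fell (median -0.20), or 4 and 12 with total-count scaling. Among them NSUN3, which modifies the methionine tRNA, rose by 0.70 ± 0.08 and YRDC, which helps place a threonyl mark on tRNAs, by 0.57 ± 0.07. TRMU, which thiolates tRNAs for lysine, glutamate and glutamine, fell by 0.61 ± 0.07 on the log2 scale, and METTL8, which methylates mitochondrial tRNAs, by 0.73 ± 0.10.

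Of 19 genes that copy or maintain mitochondrial DNA, 2 rose and 5 fell (median -0.16), or 1 and 7 with total-count scaling. POLG2, the accessory subunit of the DNA polymerase, rose by 0.83 ± 0.14 and TOP3A by 0.33 ± 0.05, with TOP3A uncalled under total-count scaling (adjusted p = 0.0729). ATAD3A, a membrane protein at nucleoids, fell by 0.71 ± 0.07 on the log2 scale, and RNASEH1, which removes RNA from RNA-DNA hybrids, by 0.39 ± 0.07. TWNK, the replicative helicase, averaged 40.6 ± 23.2 CPM after DSF/Cu and 33.8 ± 13.7 CPM in DMSO and was not called (edgeR adjusted p = 0.744).

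Of 11 tested regulators of mitochondrial biogenesis, 5 rose and 2 fell (median 0.28), or 4 and 3 with total-count scaling. PPARGC1A, a coactivator that raises mitochondrial gene programmes, averaged 5.77 ± 0.226 CPM after DSF/Cu and 2.46 ± 0.260 CPM in DMSO, a rise of 1.23 ± 0.15 (edgeR adjusted p = 0.00139). GABPA, a DNA-binding factor at nuclear genes of the respiratory chain, rose by 1.06 ± 0.08 and NFE2L2, the regulator of antioxidant genes, by 0.72 ± 0.04. The related coactivators PPARGC1B and PPRC1 fell by 0.99 ± 0.13 and 0.22 ± 0.05 on the log2 scale. The list thus held coactivators of both directions.

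The nuclear partners of the members in complexes I, III, IV and V gave 8 rises and 17 falls among 72 tested genes. Their median change was -0.10. Over all genes tested, 18.5% rose and 16.8% fell. NDUFA4, a subunit of complex IV, rose by 0.64 ± 0.07 and UQCRH of complex III by 0.57 ± 0.06. CYC1, the cytochrome c1 of complex III, fell by 0.87 ± 0.09 on the log2 scale and ATP5MC3, a subunit of the rotor of complex V, by 0.47 ± 0.05. With total-count scaling 2 of these partners rose and 33 fell, against 12.9% and 26.7% of all genes tested. The difference between nuclear and mitochondrial subunits was not tested.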

How the data were processed

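Paired-end libraries of poly(A) RNA were made from 3 repeats each of DSF/Cu and DMSO, per the labels. Columns headed Control were taken as DMSO, the only untreated group. The counts were deposited as whole numbers per gene without scaling, per the file headers, and the FPKM values were deposited beside them. The submitters' processing notes list Bowtie 0.12.2, HISAT2 2.0 and StringTie 1.3.0 without roles, and a mouse build, although all 37 members match GENCODE 29 (GRCh38). For the counter, the strand setting and multiply mapped reads nothing is stated (not given in the sources used here).

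Genes were kept by filterByExpr, scaled by TMM and compared by the two-sided quasi-likelihood test of edgeR 4.0.16 (R 4.3.3), after a check on simulated data. Shares were compared by exact permutation tests, and ratios and positions described without a test. Alternatives used DESeq2 1.42.0, limma 3.58.1 on FPKM, other scalings and filters, a replicate block and each library left out. Members were all chrMT rows, all named; of each gene list up to 4 by adjusted p and 6 chosen genes were named. Members and lists were chosen with earlier results of these data known. Libraries of a group differed by more than sampling noise.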

Additional observations from a re-analysis of the deposited data

How the results depend on the processing

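Of the 19 called members, 11 kept their call and direction under all 15 alternatives, namely MT-RNR1, MT-RNR2, MT-ND1, MT-ND2, MT-ND3, MT-ND6, MT-TL1, MT-TV, MT-TI, MT-TQ and MT-TK. Of 555 changes recomputed for the 37 members, 470 kept direction and side of the threshold. Another 33 lost the call, 23 gained one in the same direction and 29 changed sign. Among the 29, MT-CO1 and MT-CYB also gained a call, as lower, with total-count scaling. Members called lower numbered 11 with total-count scaling, 9 with limma at a pseudocount of 1 and 9 at 0.1, and 1 to 3 with a library left out; 1 was left without DSF/Cu replicate 2 or DMSO replicate 3, where fewer samples were fitted. Members called higher numbered 12 to 16 across alternatives. DESeq2 gave 16 and 4.

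Signs turned for 8 uncalled members. With total-count scaling the changes were -0.167 for MT-TY, -0.154 for MT-CO1, -0.13 for MT-CYB and -0.106 for MT-TT. With limma they were -0.142, -0.139, -0.116 and, by pseudocount, -0.077 or -0.079 for the same genes. DESeq2 gave 0.009 for MT-TC, 0.002 for MT-ND5 and 0.0 for MT-TP, the unfiltered fit -0.001 for MT-TY, and the replicate block 0.008 for MT-TC. With a library left out, the changes ranged from -0.103 to 0.123 for MT-TC, -0.093 to 0.12 for MT-TY, -0.013 to 0.071 for MT-CO1, -0.068 to 0.053 for MT-ND5, -0.079 to 0.076 for MT-TP, -0.031 to 0.253 for MT-TT and -0.956 to 0.004 for MT-TR, which turned without DMSO replicate 1. The cause was not tested.

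Replicate numbers are shared by the groups, but same-numbered libraries did not deviate together over the tested genes (r = 0.0214, -0.00775 and 0.0441). The labels do not say whether same-numbered repeats were handled together, and these correlations cannot settle it. With a replicate block 16 members were called higher and 3 lower, and 5143 genes in all, against 6424 without it; MT-TG was not called (adjusted p = 0.0779) and MT-TE was (adjusted p = 0.0453).

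Differences of DSF/Cu minus DMSO moved as follows. With FPKM sums in place of counts the rRNA share became 0.415 percentage points, the tRNA share -0.138, the minus-strand share -1.46, the MT-ND6 share of mRNAs -0.611 and the rRNA to mRNA ratio 0.0156, as FPKM divides each count by gene length. MT-RNR2 alone gave 0.114. Spearman's rho with position ranged from -0.648 to -0.587 with a library left out, a check added after the data were seen, as was the addition of the chromosome 1 copies. MT-TS1 and MT-TD, with 20 to 55 counts in every library, had standard errors of 0.44 and 0.30, and depth limits the precision of such rows.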
